A study of Bos taurus and Bos frontalis with 6 samples.

Results

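Myostatin was followed as 1 gene, MSTN (also named GDF8), read from the row ENSBTAG00000011808 of a table of 27270 Ensembl cattle gene identifiers. The row was taken by its identifier and not by its values, but the gene was chosen with earlier results of these data known. The table holds no gene symbols, so the pairing of this identifier with MSTN comes from the rule that chose the gene and could not be checked against the files. RNA came from the longissimus dorsi, a large muscle that runs along the spine, with 3 libraries of Banna cattle (Bos taurus) and 3 of Gayal (Bos frontalis). The labels give no treatment, and they give the same age, 3.5 ± 0.5 years, for every sample. A deposited sample sheet assigns to batch A the Banna replicates 1 and 2 with Gayal replicate 1, and to batch B the Gayal replicates 2 and 3 with Banna replicate 3, without saying what a batch is. It also gives a fibre class, coarse for every Banna library and fine for every Gayal library, so fibre class and species cannot be told apart. The labels do not say whether the libraries of a species came from separate animals, and p-values therefore measure the spread between these samples. Since no row carries a symbol, the markers of muscle fibres, fat, connective tissue and blood could not be looked up to check the tissue.

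Myostatin is a secreted protein of the TGF-beta family, made mainly by skeletal muscle, that limits muscle growth. It is made as a precursor that is cut by furin-type proteases to release a mature dimer, it is held inactive by its own propeptide and by follistatin, and it signals through activin type II receptors to SMAD2 and SMAD3. Loss-of-function alleles of the gene cause double muscling in cattle breeds such as the Belgian Blue and the Piedmontese. The RefSeq table for the later cattle assembly ARS-UCD2.0 lists 1 transcript for MSTN and places it beside PMS1, a DNA mismatch repair gene. Coordinates of that assembly are not those of ARS-UCD1.2, the build in the submitters' processing notes, and are not given.

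Myostatin RNA was counted in all 6 libraries, at a low level, and its level spread widely within Banna cattle, where 1 library lay far below the others. The highest library was Gayal and the lowest was Banna, but the second highest was also Banna. No species difference passed the test, and neither did a batch difference.

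The deposited values are estimated counts, given as whole numbers. MSTN had 167 in Banna replicate 1, 10 in Banna replicate 2 and 78 in Banna replicate 3. It had 48 in Gayal replicate 1, 108 in Gayal replicate 2 and 207 in Gayal replicate 3. Both groups therefore held libraries with low and high counts, and Banna held both the lowest count and the second highest. Library totals ran from 53979857 in Gayal replicate 1 to 90313051 in Banna replicate 3, a range far narrower than that of the MSTN counts. Low values in the table pile up at multiples of a step, 3.31 to 3.33 in batch A and 4 in batch B, so a step and not a single count was taken as the smallest unit counted. In steps, MSTN rested on 50, 3 and 20 in Banna replicates 1, 2 and 3, and on 15, 27 and 52 in Gayal replicates 1, 2 and 3. The value of Banna replicate 2 thus rests on very little material.

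Levels were compared as CPM (counts scaled to a common library size) after TMM scaling, which corrects library totals for differences in composition. In Banna cattle MSTN was at 2.18 CPM in replicate 1, 0.108 CPM in replicate 2 and 0.884 CPM in replicate 3, a mean of 1.06 ± 1.04 CPM (SD, n = 3). In Gayal it was at 0.854 CPM in replicate 1, 1.44 CPM in replicate 2 and 2.52 CPM in replicate 3, a mean of 1.60 ± 0.844 CPM (SD, n = 3). The species overlapped: Banna replicate 1 lay above Gayal replicates 1 and 2, and Banna replicate 3 lay above Gayal replicate 1. Of all genes tested, 10.4% had no overlap between the species, and MSTN was not among them. With 3 against 3 libraries in random order, a proportion of 0.1 would have no overlap. The highest library exceeded the lowest 20.1-fold in Banna and 2.95-fold in Gayal, while the ratio of the species means, Gayal over Banna, was 1.52. In bulk muscle a lower level could come from fewer cells that make the RNA or from less RNA per cell, and these cannot be told apart. A cattle build was used for both species. Between the species, a difference in RNA level and one in how reads align cannot be told apart.

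**Figure D1:**
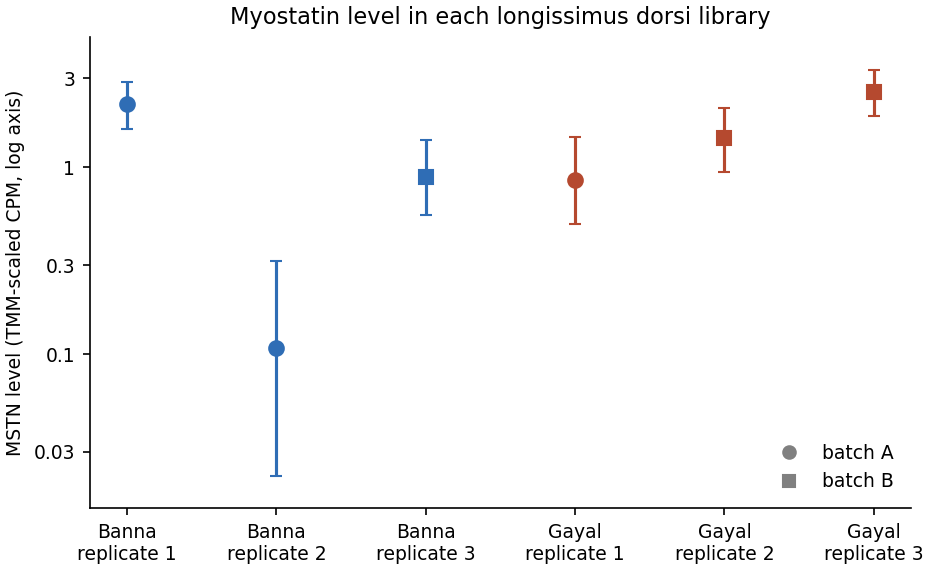
Myostatin level in each library on a log axis in TMM-scaled CPM, blue for Banna and red for Gayal, circles for batch A and squares for batch B, with 95% exact Poisson intervals that cover counting error only. Banna replicate 2, at 0.108 CPM, stands below the other 5 libraries, which lie between 0.854 and 2.52 CPM and mix the species.

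From high to low the order was Gayal replicate 3, Banna replicate 1, Gayal replicate 2, Banna replicate 3, Gayal replicate 1 and Banna replicate 2. Neighbours in this order were compared by the ratio of their steps, each scaled to its library, with a 95% exact binomial interval for counting error only. Among the upper 5 libraries no neighbours differed beyond that error. The ratio of Gayal replicate 3 to Banna replicate 1 was 1.17 (0.776 to 1.76), that of Banna replicate 1 to Gayal replicate 2 was 1.51 (0.927 to 2.51), and that of Gayal replicate 2 to Banna replicate 3 was 1.58 (0.856 to 2.98). Banna replicate 3 and Gayal replicate 1 were nearly level, at a ratio of 1.03 (0.499 to 2.15), and they changed places when library totals replaced TMM factors. The order was set by level, which makes neighbours close, so these ratios do not show that the 5 libraries were level. The 95% Poisson counting interval was 1.89 to 3.32 CPM in Gayal replicate 3 and 1.61 to 2.86 CPM in Banna replicate 1. Both lay wholly above the intervals of Banna replicate 3, 0.554 to 1.40 CPM, and Gayal replicate 1, 0.495 to 1.46 CPM. Among neighbours, the lowest library was the exception. Gayal replicate 1 exceeded Banna replicate 2 by a ratio of 8.19 (2.32 to 44.1). Banna replicate 1 exceeded Banna replicate 2, of the same species and batch, by a ratio of 20.1 (6.49 to 101).

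For 21.4% of the 14112 genes tested Banna replicate 2 held the lowest level, and for 21.8% it held the highest. Both shares were the largest of the 6 libraries, whose other values were 10.6% to 20.9% for the lowest and 11.7% to 19.5% for the highest level. A gap of at least 4-fold under every other library was found for 0.857% of them, against 0.305% to 2.43% for the other libraries, on log2 CPM with a prior count of 2. The MSTN gap on that scale was 2.72 below the next library, and 0.461% of genes tested had a gap as large or larger in this library. Banna replicate 2 was picked because MSTN was lowest in it, and its MSTN value rests on 3 steps. The share of 0.461% is therefore not a test of the gap. The total of Banna replicate 2, 87209182 counts, and its number of genes above 0, 16317, were within or above the range of the other libraries, 53979857 to 90313051 counts and 15097 to 16079 genes. The part of these measures in the low value was not tested.

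Over all 6 libraries, MSTN spanned 4.25 on the log2 CPM scale from lowest to highest. The median span of the genes tested was 1.93, and 11.2% had a wider one. That wide span rested on Banna replicate 2: over the other 5 libraries MSTN spanned 1.53, against a median of 1.69 for the genes tested, and 56.5% had a wider span. Banna replicate 2 was picked as the lowest library of MSTN and left out for every gene. The share of 56.5% therefore cannot show that the MSTN span is typical. Taken singly, the species split held 18.3% of the sum of squares of MSTN log2 CPM and the batch split 19.3%. Exact permutation tests of these splits gave p = 0.5 for species and p = 0.4 for batch. Any even split of the libraries takes up some share by chance, so neither share shows an effect of species or batch. These shares overlap, because each batch holds the species in unequal numbers.

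**Figure D2:**
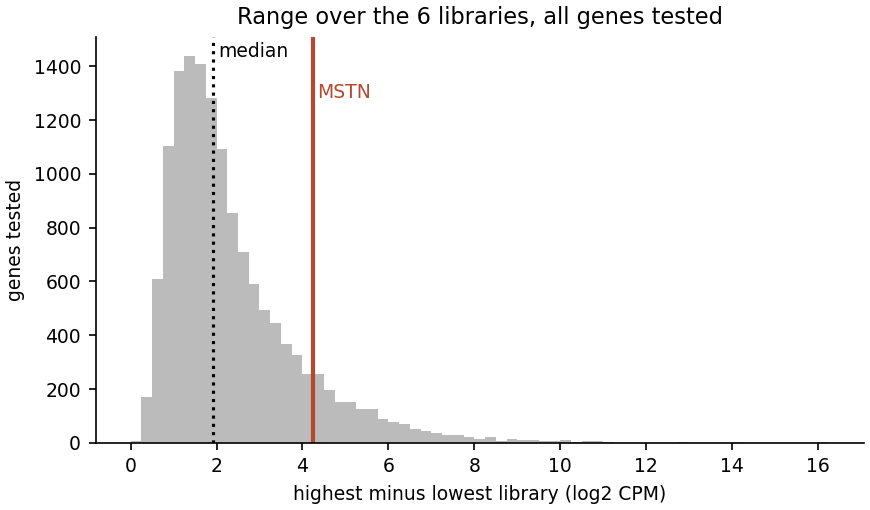
Number of genes tested (vertical axis) by the difference between their highest and lowest library in log2 CPM (horizontal axis), for all 14112 genes. The red line marks MSTN at 4.25 and the dotted line the median at 1.93, with 11.2% of genes to the right of MSTN. Without Banna replicate 2 the MSTN span was 1.53.

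The comparison the series was built on, Gayal against Banna, gave no call for MSTN. With species as the 1 term, the fitted log2 difference, Gayal minus Banna, was 0.60 (SE 0.981, edgeR adjusted p = 0.978). Its 95% interval ran from -1.68 to 2.89, that is from 0.312-fold to 7.42-fold of the Banna level. Differences of several-fold in favour of Gayal, and of about 3-fold in favour of Banna, thus lie within the interval, and the test does not show that the species have equal levels. In this fit 0% of the 14112 genes tested were called, with 720 at an unadjusted p under 0.05. DESeq2, which used its own gene filter, gave MSTN a log2 difference of 0.62 (SE 0.980, adjusted p = 0.997). It called 1.04% of the 16480 genes it tested. The value from limma-voom was 1.41 (SE 1.04, adjusted p = 0.871), where it called 0.00709% of the 14112 genes. A two-sided exact permutation test of log2 CPM compared means of 0.57 in Gayal and -0.63 in Banna and gave p = 0.5; the smallest p possible with 3 against 3 is 0.1. Among the genes tested, 38.1% had a larger absolute edgeR log2 difference between the species than MSTN.

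With batch added as a term, the log2 difference between the species was 0.38 (SE 1.16, edgeR adjusted p = 0.963), with a 95% interval of -2.40 to 3.16. The MSTN estimate ranked near the middle, with 51.5% of genes tested at a larger absolute value in this fit, whose median was 0.40. Its interval is wide, so the rank does not show that the MSTN difference is typical. There 0.0425% of genes were called by edgeR. DESeq2 gave 0.39 (SE 1.06, adjusted p = 0.989) and limma-voom gave 1.06 (SE 0.931, adjusted p = 0.793). They called 3.46% of 18997 genes and 0.0921% of 14112 genes.

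**Figure D3:**
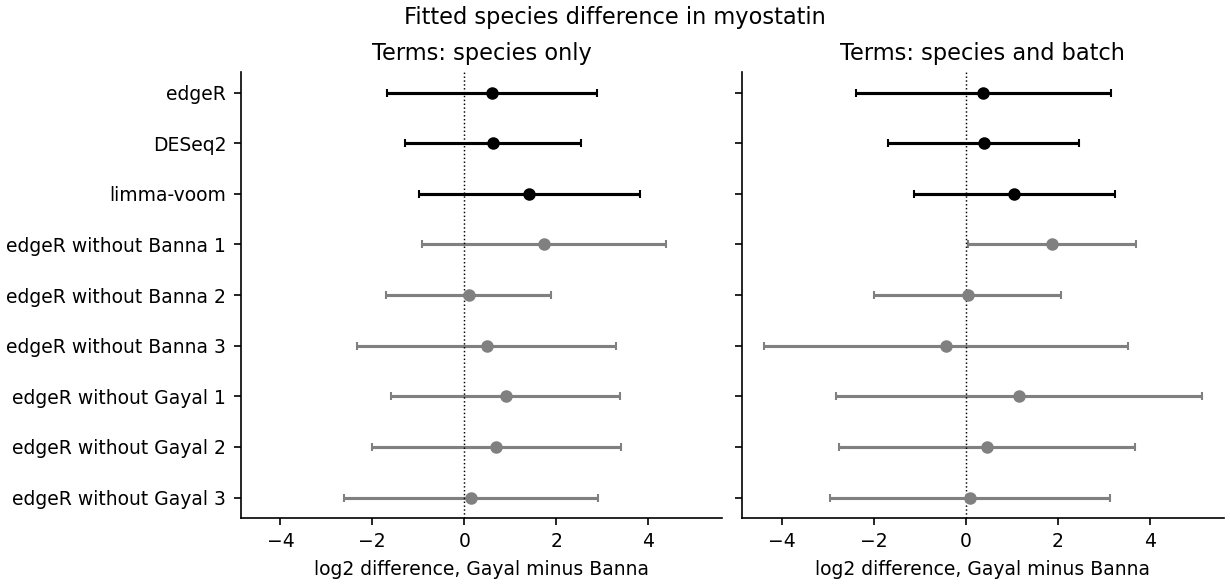
Fitted log2 difference of MSTN, Gayal minus Banna (horizontal axis), with species as the 1 term (left) and with species and batch (right). Points are estimates and bars 95% intervals, black for the 3 tools on all libraries and grey for edgeR with 1 library left out; every interval includes 0 except that with a batch term and without Banna replicate 1, which runs from 0.05 to 3.71 with an adjusted p of 0.701 in edgeR.

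Single libraries set the size of the species difference. Without Banna replicate 2, the library at 0.108 CPM, the edgeR log2 difference with species as the 1 term was 0.10 (SE 0.750). Without Banna replicate 1, the highest Banna library, it was 1.74 (SE 1.10). With a batch term the same omissions gave 0.04 and 1.88, and without Banna replicate 3, the only Banna library in batch B, the sign turned to -0.42 (SE 1.58, edgeR adjusted p = 0.967). Leaving out Gayal replicate 1, the only Gayal library in batch A, gave 1.15 with a batch term and 0.90 without, and leaving out Gayal replicate 3, the highest library, gave 0.09 and 0.15. None of the fits with a library left out called MSTN, and their smallest edgeR adjusted p was 0.701.

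Within batch A the 1 Gayal library, at 0.854 CPM, lay between the 2 Banna libraries, at 2.18 and 0.108 CPM, and the edgeR log2 difference was -0.43. Its sign depended on the scale, since limma-voom gave 0.88 and the difference in mean log2 CPM was 0.70. Within batch B both Gayal libraries, at 1.44 and 2.52 CPM, lay above the 1 Banna library, at 0.884 CPM, and the edgeR log2 difference was 1.22, against 1.17 in limma-voom and 1.08 in mean log2 CPM. Each batch had a single library on 1 side of the comparison. The test of the difference between the batches, the species by batch interaction, gave a log2 value of 1.57 (SE 2.25, edgeR adjusted p = 0.934) with a 95% interval of -4.05 to 7.20, and edgeR called 0% of genes in it, with 931 at an unadjusted p under 0.05. DESeq2 gave 1.63 (adjusted p = 0.988) and called 1.73% of 14319 genes, and limma-voom gave 0.15 (adjusted p = 0.993) and called 0%. The edgeR interaction was 2.55 (SE 1.21, adjusted p = 0.788) without Banna replicate 2 and turned to -1.72 (SE 1.34, adjusted p = 0.752) without Banna replicate 1.

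MSTN libraries of the batches overlapped, while those of many genes did not. Its level was 1.05 ± 1.05 CPM in batch A and 1.61 ± 0.831 CPM in batch B (SD, n = 3), and Banna replicate 1 of batch A lay above 2 of the batch B libraries. Over all genes tested, 43.2% had no overlap between the batches. With species in the fit, the log2 difference of MSTN, batch B minus batch A, was 0.42 (SE 1.16, edgeR adjusted p = 0.831), against 14.6% of genes called. DESeq2 gave 0.41 (adjusted p = 0.829) and called 25.3% of 17569 genes. The value from limma-voom was 1.09 (adjusted p = 0.454), where it called 16.9% of 14112 genes. A larger absolute difference between batches was found for 72.7% of the genes tested, whose median was 0.83. The MSTN batch difference was 1.97 without Banna replicate 1 (SE 0.740, edgeR adjusted p = 0.140) and turned to -0.36 without Gayal replicate 1 (SE 1.54, edgeR adjusted p = 0.910). Leaving out Banna replicate 2 gave 0.10, leaving out Gayal replicate 3 gave 0.17, and leaving out Banna replicate 3 gave 1.21.

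Other genes with a similar pattern over the libraries were sought among 7658 genes with a mean of at least 5 CPM, by Pearson r of log2 CPM with MSTN over the 6 libraries. These values describe 6 points of which Banna replicate 2 lies far from the rest, and no test was made. The median r was 0.11, 60 genes reached 0.9 and 28 lay at or below -0.9. With 6 points and 7658 genes, such values also arise between unrelated genes, so these counts do not show a pattern shared with MSTN. Without Banna replicate 2, 8 of the 60 and 5 of the 28 were still past these limits. The most alike was ENSBTAG00000024884, at r = 0.994 (0.968 without Banna replicate 2), followed by ENSBTAG00000004933, at r = 0.989 (0.933 without it). Their levels moved much less than that of MSTN, from 6.50 CPM in Banna replicate 2 to 9.27 CPM in Banna replicate 1 for ENSBTAG00000024884, and from 20.7 CPM in Banna replicate 2 to 44.6 CPM in Gayal replicate 3 for ENSBTAG00000004933.

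The most opposite patterns were those of ENSBTAG00000009533, at r = -0.985 (-0.935 without Banna replicate 2), and ENSBTAG00000010934, at r = -0.962 (-0.856 without it). Both were highest in the library where MSTN was lowest. ENSBTAG00000009533 reached 589 CPM in Banna replicate 2 and was between 322 and 381 CPM in the other libraries. ENSBTAG00000010934 reached 13.2 CPM there and was between 5.27 and 8.60 CPM elsewhere. The files give no names for these 4 identifiers. None of them was called between the species by edgeR, with species alone (adjusted p of 0.972 to 0.990) or with a batch term (adjusted p of 0.788 to 0.967).

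**Figure D4:**
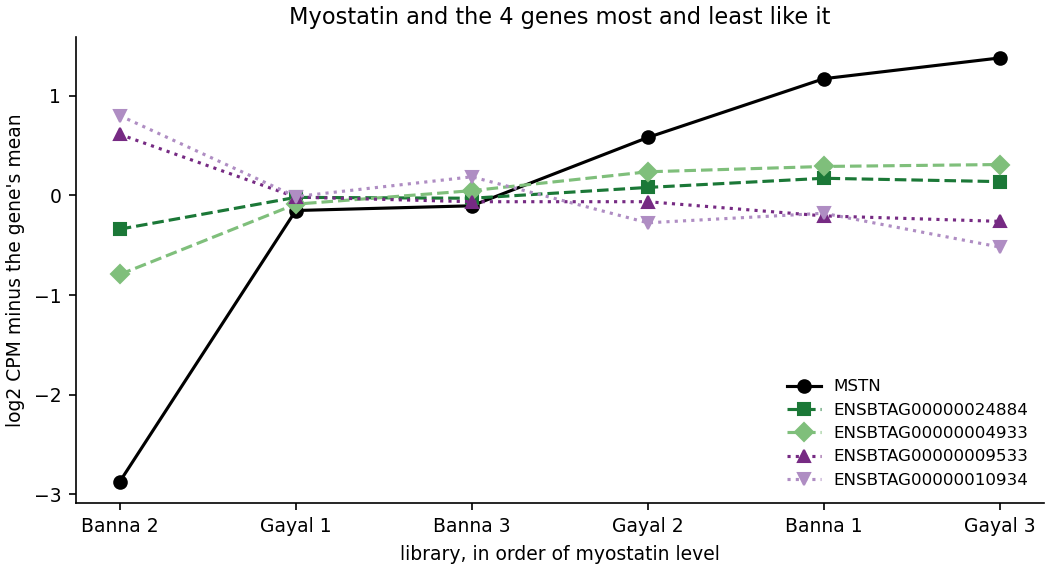
Log2 CPM minus each gene's mean (vertical axis) in the 6 libraries, ordered by myostatin level (horizontal axis), for MSTN (black), the 2 genes most alike (green, dashed) and the 2 most opposite (purple, dotted). MSTN spans 4.25 and all 4 others a narrower range, with their extreme values in Banna replicate 2, where MSTN was lowest.

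Follistatin, the activin receptors, the SMAD proteins, the proteases that mature myostatin, the muscle wasting genes FBXO32 and TRIM63 and the myogenic factors were listed for comparison, but 0 of the 27270 identifiers could be matched to a symbol. Their levels are not analysed here.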

How the data were processed

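MSTN was examined in 6 RNA-seq libraries, 3 Gayal and 3 Banna. Per the submitters' processing notes, HISAT2 2.0.4 and the cattle build ARS-UCD1.2 were used for both species; annotation, counting program and strand setting: not given in the sources used here. The authors deposited estimated counts per gene, not normalized. The design assumed counts; rounding changed no value. A step was estimated per library from values up to 60, as the interval at whose rounded-up multiples genes were most in excess over adjacent values.

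Fits covered all genes and used edgeR 4.0.16 in R 4.3.3 (TMM, filterByExpr, robust quasi-likelihood F test, 14112 genes, Benjamini-Hochberg, threshold 0.05), with 4, 3 and 2 residual degrees of freedom for species, species and batch, and the interaction. The SE was the log2 difference divided by the square root of F, and the 95% interval used the test's total degrees of freedom. Alternatives were DESeq2 1.42.0 and limma 3.58.1 with voom, other scaling, filters and count units, and left-out libraries. Scripts were tested on simulated data. Permutation tests used scipy 1.17.1. Besides MSTN, the identifiers named were those with the 2 highest and 2 lowest r, since no symbols were available. The gene, lists and tests were chosen with earlier results of these data known.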

Additional observations from a re-analysis of the deposited data

How the results depend on the processing

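MSTN was called by none of the alternatives run. Its log2 difference between species was 0.55 to 1.41 over 10 other tools, scalings, filters and units, and 0.10 to 1.74 when a library was omitted. With a batch term these ranges were 0.38 to 1.06 and -0.42 to 1.88, the sign turning without Banna replicate 3 (-0.42). The batch difference was 0.28 to 1.09, and -0.36 to 1.97 with a library left out, negative only without Gayal replicate 1 (-0.36). The smallest adjusted p over these fits was 0.701 for species and 0.140 for batch, both with a batch term and without Banna replicate 1. The interaction was 0.15 to 1.66, and -1.72 to 2.55 over the 4 omissions that kept every species and batch combination, with 1 residual degree of freedom; it was negative only without Banna replicate 1 (-1.72). Within batch A the edgeR difference was -0.44 to -0.16, but 0.88 in limma-voom and 0.70 in mean log2 CPM, both chosen after seeing the data; within batch B all of these gave 1.08 to 1.27. The difference in mean log2 CPM was 1.04 to 1.32, and 0.07 to 2.09 with a library left out (exact permutation p of 0.4 to 1). With the replicate number as a block the edgeR log2 difference was 1.31 (SE 1.21, adjusted p = 0.994). Across genes, libraries sharing a number deviated from their species means with correlations of 0.253 for replicate 1, -0.448 for replicate 2 and 0.279 for replicate 3. The libraries numbered 1 share a batch, as do those numbered 3, while those numbered 2 do not. These values therefore cannot tell whether the numbers pair the samples. The cause of these shifts was not tested. The 3 steps of Banna replicate 2 left its level at 0.022 to 0.315 CPM by counting error. They limit the precision of ratios and of means of log2 CPM that include it. The pathway lists could not be tested for want of symbols.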
